A study of Homo sapiens with 9 samples.

Results

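The genes described here are the protein-coding genes of human chromosome 19 whose symbol begins with ZNF and whose counts, summed over the 9 RNA sequencing libraries, reached at least 100. They were thus selected on their measured counts. Of 251 protein-coding ZNF genes on the chromosome, 198 met that sum and 53 did not, out of 57500 genes in the count files. The sum is over all libraries together, and all 198 passed the filter on low counts used for testing. Just inside the limit lay ZNF568, with a count sum of 109, and ZNF709, with 127. Just outside lay ZNF154, with 94, and ZNF284, with 91. The comparison asked whether zinc finger genes that lie side by side rose, fell or were silent together when B cells were given either isoform of the receptor TACI.

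Most genes of this family encode DNA-binding proteins with a row of C2H2 zinc fingers, and many carry a KRAB domain in front of the fingers. KRAB zinc finger proteins recruit the corepressor TRIM28 (also called KAP1), which brings the histone methyltransferase SETDB1 and heterochromatin proteins to DNA, and they are best known for silencing transposable elements. The genes multiplied by tandem duplication, so that neighbours on chromosome 19 are often close relatives, and heterochromatin marks are known to cover parts of the clusters themselves. In the coding sequences of GENCODE release 29, 164 of the 197 genes described here that have one held a match to a KRAB A-box pattern and 33 held none, and the median was 12 C2H2 fingers. A missed match does not show that the domain is absent.

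The libraries came from BJAB, a long-established human line of B cells whose genotype the labels give as Burkitt lymphoma. TACI, the product of TNFRSF13B, is a TNF-family receptor of B cells for BAFF and APRIL that is made in a long and a short isoform. Parental BJAB cells (3 libraries) were the control, and the other groups were BJAB cells given the long isoform (TACI long, 3 libraries) and BJAB cells given the short one (TACI short, 3 libraries). All were left untreated. The titles describe stable transfection and the series text transduction. No line with an empty vector is among the groups, and the promoter of the constructs and the number of clones behind a line are not given in the sources used here. Polyadenylated RNA of sorted cells was made into libraries with Nextera XT, which does not mark the strand, so reads of overlapping genes cannot be told apart. No label ties replicates to separate cultures, and p-values therefore measure the spread between libraries, which may be technical.

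Libraries held between 40322136 and 50079203 counts. TNFRSF13B, the introduced gene, stood at 14.6 to 28.8 CPM (counts scaled to the library total) in parental cells, 691 to 738 CPM in TACI long and 2655 to 2965 CPM in TACI short. Its log2 fold change against parental was 5.18 in TACI long (adjusted p = 6.68e-06 by the quasi-likelihood test of edgeR, Benjamini-Hochberg adjustment). In TACI short it was 7.06 (adjusted p = 1.21e-06, the same edgeR test). All 8 B-cell markers examined were detected, and their summed level differed between the groups, at 3839 to 3968 CPM in parental, 3531 to 3568 in TACI long and 3136 to 3277 in TACI short. The sum of 8 T and NK cell markers was 53 to 56.6, 14.7 to 16.3 and 24.8 to 28.7 CPM in the same order. Most of this sum was 1 gene, TRAC, with 49.5 to 53.3, 11.6 to 13.4 and 21.3 to 24.7 CPM. CD3D, CD8A and CD2 had at most 0.0496 CPM in any library, and NKG7 had means of 2.16, 1.53 and 2.51. CD3E was highest in TACI long, with means of 0.932, 1.39 and 0.757. CD3G had means of 0.25, 0.0457 and 0.0547, and GNLY 0.0302, 0.0692 and 0.158. The part of the B-cell or the T and NK cell sum in the results was not tested. TACI short replicates 2 and 3 stood apart: 32882 and 32209 genes had a count in them, against 24307 to 25938 in the other 7 libraries. The summed level of 12 myeloid markers was 129 and 125 CPM in these 2 libraries and 11.8 to 29.8 CPM in the other 7, with C1QB at 0 in all 9. CSF1R alone gave 57.8 and 56.7 CPM of the 2 sums. Of 8 epithelial and fibroblast markers, COL1A1 was higher there too, at 11 and 10.2 CPM against 1.5 to 3.24. COL1A2 had 3.99 and 4.11 CPM against 0.51 to 1.44. The sum of the 8 did not stand apart, at 91.5 and 90.5 CPM against 83.3 to 120.4. Where a call printed for TACI short is lost without these 2 libraries, that is said beside it. In bulk RNA, fewer cells that express a gene and less RNA per cell cannot be told apart.

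A single one of the 198 genes was nearly silent in one group and expressed in another, by a limit of under 0.1 CPM against at least 0.5 CPM in group means: ZNF836, a KRAB gene with 24 fingers. In the whole data 1.19% of protein-coding genes tested met the same limits. The sequences in front of the starts of ZNF836, of its neighbour ZNF616, which was not silenced, and of ZNF257 and ZNF256, whose RNA also differed widely between groups, are shown for comparison. They are RefSeq sequences of build GRCh38.p14, read 5′ to 3′ on the strand of each gene and ending where the deposited gene model or the RefSeq start begins, whichever comes first. Capitals mark CG dinucleotides, the target of DNA methylation in promoters.
ZNF836 (chr19:52171644-52171871, minus strand): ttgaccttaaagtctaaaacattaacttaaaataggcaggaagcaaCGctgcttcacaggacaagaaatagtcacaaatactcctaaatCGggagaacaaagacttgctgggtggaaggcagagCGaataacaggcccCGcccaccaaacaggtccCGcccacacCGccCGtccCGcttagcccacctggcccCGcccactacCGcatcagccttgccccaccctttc
ZNF616 (chr19:52139939-52140188, minus strand): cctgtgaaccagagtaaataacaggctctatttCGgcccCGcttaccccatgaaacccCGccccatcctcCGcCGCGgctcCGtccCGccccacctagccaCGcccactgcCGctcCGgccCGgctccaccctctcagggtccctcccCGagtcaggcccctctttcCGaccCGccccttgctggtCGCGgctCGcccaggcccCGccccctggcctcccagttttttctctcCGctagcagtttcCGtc
ZNF257 (chr19:22052234-22052451, plus strand): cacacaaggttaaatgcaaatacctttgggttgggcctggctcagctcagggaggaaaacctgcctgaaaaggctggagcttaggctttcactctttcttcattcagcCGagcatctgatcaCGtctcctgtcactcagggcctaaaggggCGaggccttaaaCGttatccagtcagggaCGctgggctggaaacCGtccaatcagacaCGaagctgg
ZNF256 (chr19:57947707-57947956, minus strand): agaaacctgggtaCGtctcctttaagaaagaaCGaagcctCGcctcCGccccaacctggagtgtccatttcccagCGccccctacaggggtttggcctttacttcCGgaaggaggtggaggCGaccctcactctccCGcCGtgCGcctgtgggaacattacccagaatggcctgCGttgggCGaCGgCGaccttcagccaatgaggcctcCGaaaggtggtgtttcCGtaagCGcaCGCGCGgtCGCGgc
The stretches hold 10 CG dinucleotides in 228 bases for ZNF836, 21 in 250 for ZNF616, 7 in 218 for ZNF257 and 22 in 250 for ZNF256. RefSeq windows from 250 bases before the start to 50 after it were at hand for 180 of the 198 genes, and the median was 20 CG per window, against 22 over 15260 protein-coding genes. At least 1 CG, which reads alike on both strands, occurred in 98.1% of all those windows. ZNF836 with 14 CG and ZNF257 with 13 in the full window were below the median of the family, and ZNF616 with 24 and ZNF256 with 26 above it. DNA methylation was not measured, and these letters are a description only.

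ZNF836 (ENSG00000196267, hg38 chr19:52153864-52171643, minus strand) had 1.07, 1.1 and 1.18 CPM in the parental libraries. In TACI long it had 0.0473, 0.0219 and 0 CPM, which are 3 counts in all 3 libraries together. In TACI short it had 1.42, 1.34 and 1.5 CPM. The 3 TACI long libraries lay far below the other 6, and the parental and TACI short libraries did not overlap either. Parental libraries held 48.7 times as much ZNF836 RNA as TACI long (exact 95% interval 16.4 to 239), and TACI short libraries 62.2 times as much (21 to 304). Reads carried no molecular identifiers, so these intervals cover counting error only. The log2 fold change of TACI long against parental was -5.45 ± 0.42 (SE; adjusted p = 1.38e-10 by the quasi-likelihood test of edgeR, Benjamini-Hochberg adjustment). An annotated gene at the same place shares 12.09% of its 50-base words, and 1.11% occur elsewhere. Between TACI short and parental the log2 fold change of 0.22 did not pass (adjusted p = 0.434, edgeR).

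The zinc finger genes beside ZNF836 were not silent in TACI long. ZNF616, the next member toward the start of the chromosome, had 5.43, 5.9 and 4.91 CPM in parental, 6.57, 6.34 and 6.37 in TACI long and 7.09, 7.64 and 7.35 in TACI short. Its log2 fold change was 0.25 in TACI long and 0.31 in TACI short (adjusted p = 0.0292 and 0.00548, edgeR), and without parental replicate 3 neither passed (adjusted p = 0.195 and 0.0751). In TACI long, leaving out parental replicate 1 or TACI long replicate 1 or 3 also ended the call of ZNF616 (adjusted p = 0.0625 to 0.104). ZNF766, the next gene on the other side, had 21.6, 22.3 and 19.8 CPM in parental and 23.8, 23.9 and 26.1 in TACI long, a log2 fold change of 0.22 (adjusted p = 0.00557, edgeR). Without parental replicate 3 or TACI long replicate 3 ZNF766 no longer passed (adjusted p = 0.0754 and 0.0722). ZNF766 did not pass between TACI short and parental (log2 fold change -0.06). ZNF836 was thus a single gene near 0 in TACI long, between 2 neighbours that were not lower there.

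**Figure D1:**
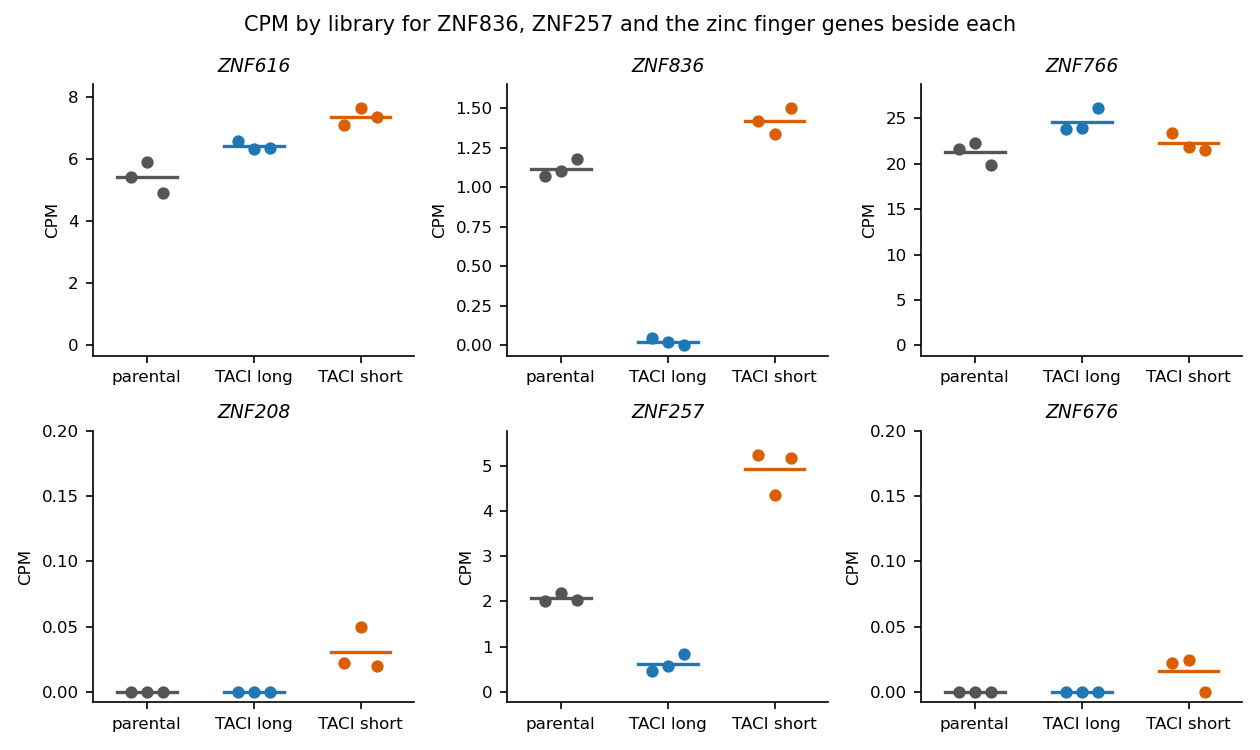
CPM (y axis) in each of 3 libraries per group (points) with the group mean (line), for ZNF836 and ZNF257 in the middle column and the zinc finger genes next to them on the left and right. ZNF836 was at 0 to 0.0473 CPM in TACI long while ZNF616 and ZNF766 were not lower there, and ZNF257 lay between ZNF208 and ZNF676, which had at most 0.0496 CPM in any library.

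ZNF256, a KRAB gene with 15 fingers, showed the nearest pattern but missed the count sum, with 87 counts in all; it was picked after its values were seen. It had 0.717, 0.436 and 0.579 CPM in parental, 0.0236, 0.0219 and 0 in TACI long, and 0, 0.0744 and 0.0599 in TACI short. Its RNA was thus near 0 in both lines given TACI, with 79 counts in parental libraries against 2 in TACI long and 6 in TACI short. The log2 fold change was -5.02 in TACI long and -3.75 in TACI short (adjusted p = 1.23e-06 and 3.33e-06 by the quasi-likelihood test of edgeR, Benjamini-Hochberg adjustment). Parental libraries held 38 times the RNA of TACI long (exact 95% interval 10.2 to 319). Its neighbours ZNF418 and ZNF606 were low in every parental and TACI long library, at no more than 0.162 CPM, so ZNF256 was expressed in parental cells between genes that were nearly silent.

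ZNF257 (hg38 chr19:22052452-22091480, plus strand), a KRAB gene with 11 fingers in the group of zinc finger genes near the centromere (cluster 4 of the 10 clusters defined further on), moved in opposite directions in the 2 lines. It had 2, 2.18 and 2.04 CPM in parental, 0.473, 0.57 and 0.834 in TACI long and 5.24, 4.36 and 5.17 in TACI short, and no 2 groups overlapped. The log2 fold change was -1.72 ± 0.19 in TACI long and 1.12 ± 0.17 in TACI short (SE; adjusted p = 5.36e-08 and 2.85e-06, edgeR). TACI short cells had 7.18-fold more ZNF257 RNA than TACI long cells (log2 fold change 2.84, adjusted p = 3.17e-12, edgeR). ZNF257 was the one expressed gene inside a silent stretch. ZNF208 on one side and the 7 genes ZNF676, ZNF729, ZNF98, ZNF492, ZNF99, ZNF723 and ZNF728 on the other had between them 0 to 3 counts in any parental or TACI long library, 4 in TACI short replicate 1 and 10 in each of TACI short replicates 2 and 3. No library exceeded 0.0799 CPM for any of the 7 genes from ZNF676 to ZNF728, which span 0.824 Mb. The stretch was thus near 0 in all 3 groups.

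Silence was otherwise mostly shared by the 3 groups. Of the 251 genes, 32 had a group mean under 0.1 CPM in every group. All 32 were among the 53 under the count sum. This follows from the selection, since a gene that low in every group cannot reach the sum at these library sizes. Group by group, 43 genes were under 0.1 CPM in parental, 47 in TACI long and 34 in TACI short. The lower number in TACI short went with its replicates 2 and 3, where 20 and 23 of the 53 genes reached 0.1 CPM. In TACI short replicate 1 this was 8 genes, and in parental and TACI long libraries 6 to 10. After the ZNF676 to ZNF728 stretch, the next longest runs of genes low in every group had 3 genes each, ZNF556 to ZNF77 and ZNF112 to ZNF229. The plot of levels along clusters 4 and 8 shows silent genes standing singly or in short runs between expressed ones.

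**Figure D2:**
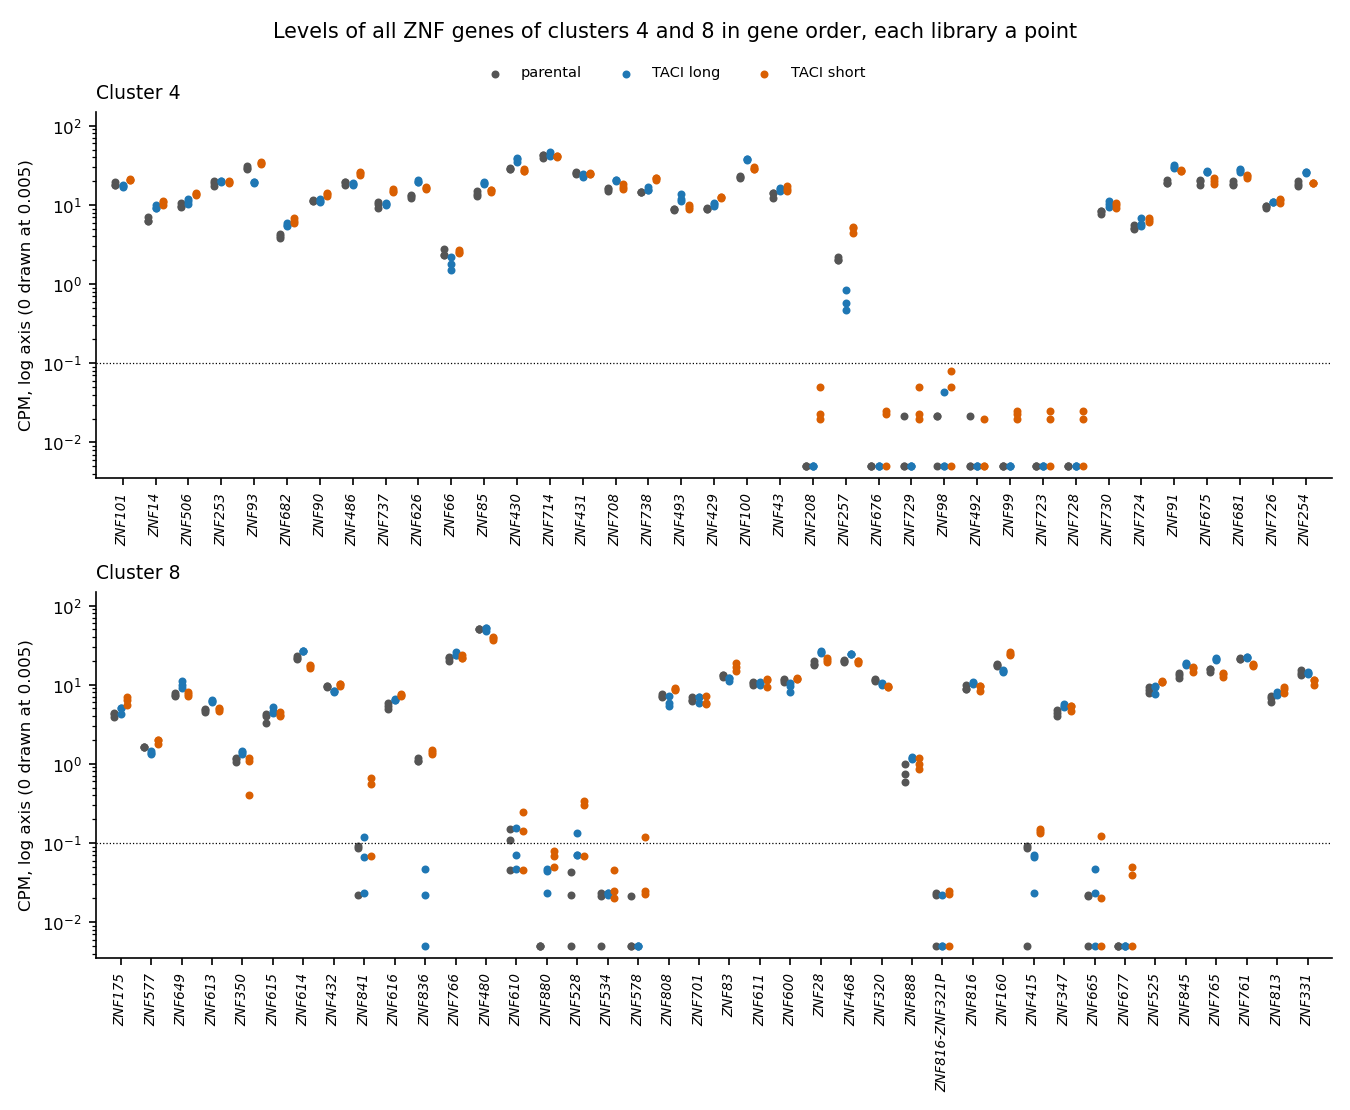
CPM of all ZNF genes of cluster 4 (37 genes) and cluster 8 (40 genes) in order along the chromosome, with 1 point per library and the group as colour. The y axis is logarithmic with 0 drawn at 0.005, and the dotted line marks 0.1 CPM. ZNF836 in cluster 8 is the single gene whose TACI long points lie below the line while the points of both other groups lie above it.

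Levels of the 198 genes were low and similar from group to group. Their mean over the 9 libraries ranged from 0.269 to 119 CPM with a median of 9.13, and 19 were under 1 CPM. By CPM, ZNF146, whose protein consists almost wholly of zinc fingers, had 112 to 128 CPM in every library. ZNF787 had 89.4 to 115, ZNF574 54.9 to 69.6 and ZNF317 52.8 to 59.4. Per kilobase of exon, ZNF581 was first with 30.7 CPM per kb, before ZNF146 with 28.8 and ZNF787 with 27.8. The median was 1.48 CPM per kb for genes with a KRAB match and 4.26 for those without one. Summed over the 198 genes the level was 2384 to 2452 CPM in parental, 2525 to 2583 in TACI long and 2512 to 2604 in TACI short. Scaled by the trimmed mean of M values (TMM), as in the tests, the sums were 2467 to 2504, 2616 to 2658 and 2368 to 2527 CPM, so only TACI long stood clear of parental on both scales.

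The first comparison asked what changed in cells given the long isoform. Of the 198 genes 68 were higher and 31 lower than in parental cells at an adjusted p under 0.05 (edgeR quasi-likelihood test, p adjusted over 16672 genes by Benjamini-Hochberg), here termed called. That is 50% of the genes, against 51.1% of all genes tested and 62.4% of 218 ZNF genes on other chromosomes. The libraries of the 2 groups did not overlap for 59.1% of the genes, against 60.7% of all genes tested. The median log2 fold change was 0.10, against 0.02 over all protein-coding genes tested. Among 755 other protein-coding genes of chromosome 19 the direction was the reverse, with 138 higher and 283 lower. The 218 ZNF genes on other chromosomes leaned the same way as the 198, with 84 higher, 52 lower and a median of 0.08. Changes of at least 1 on the log2 scale were called for 9.12% of all genes tested and 4.13% of ZNF genes on other chromosomes. Among the 198 genes they were called for only 6, or 3.03%, and all 6 fell. They were ZNF836, ZNF257, ZNF382, ZNF302, ZNF844 and ZNF8-ERVK3-1, a readthrough transcript that shares exons with ZNF8.

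The deepest falls in TACI long exceeded the largest rises in size. ZNF302 had 13.4, 13.6 and 13.1 CPM in parental, 6.24, 6.76 and 6.7 in TACI long and 13, 13.7 and 14 in TACI short, a fall of 1.02 ± 0.07 in TACI long (SE; adjusted p = 2.62e-11, edgeR). The TACI long libraries lay apart from the other 6, which overlapped. ZNF844 fell from 1.56 to 1.8 CPM in parental to 0.556 to 1.29 in TACI long (log2 fold change -1.01, adjusted p = 0.00121, edgeR). ZNF382 had 1.07, 1.35 and 1.22 CPM in parental and 0.496, 0.504 and 0.533 in TACI long (log2 fold change -1.24, adjusted p = 8.09e-05, edgeR). Its gene overlaps ZNF529, so its reads are uncertain. ZNF587, which overlaps ZNF814, fell from 10.8 to 13.4 CPM to 6.43 to 7.28 (log2 fold change -0.88), and ZNF557 from 10.6 to 11 CPM to 6.1 to 7.94 (log2 fold change -0.65).

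The 6 largest called rises among genes with a mean of at least 1 CPM were those of ZNF780A, ZNF100, ZNF225, ZNF180, ZNF91 and ZNF443, each between 0.64 and 0.74 on the log2 scale. ZNF100 had 22.7, 23.5 and 21.8 CPM in parental, 37.4, 37.9 and 38 in TACI long and 30.1, 28.8 and 28.8 in TACI short. The 3 groups were fully separate, with TACI long highest (log2 fold change against parental 0.74 ± 0.05, adjusted p = 2.68e-11, edgeR). ZNF91, the repressor of SVA retrotransposons and the gene with the most fingers here, 31, had 19.1, 20.5 and 18.8 CPM in parental and 32.4, 29 and 30.3 in TACI long (log2 fold change 0.65, adjusted p = 8.47e-10, edgeR). ZNF93, which silences older L1 elements and was picked for that role after its values were seen, moved the other way within the same cluster. It had 28.7 to 31.3 CPM in parental and 19.2 to 19.7 in TACI long (log2 fold change -0.62, adjusted p = 1.41e-09, edgeR). For ZNF443, 32.58% of its 50-base words also occur in other genes, mostly ZNF799, so its reads could be split between them.

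**Figure D3:**
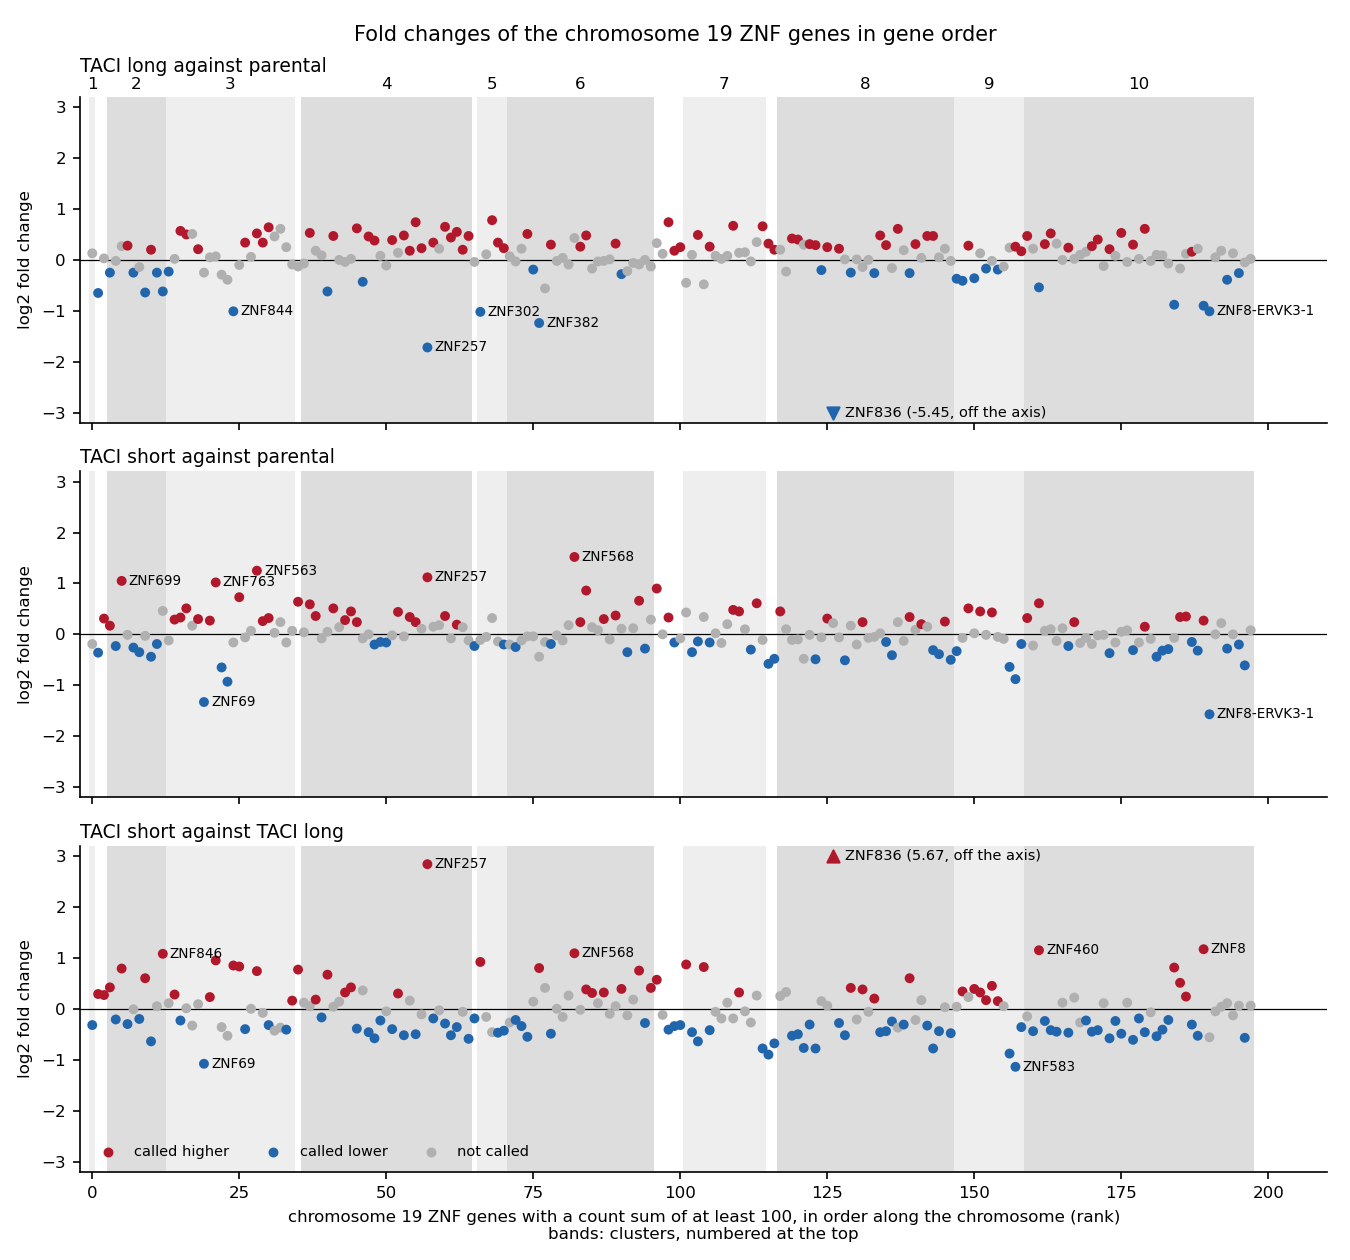
Log2 fold change (y axis) of the 198 genes in order along chromosome 19 (x axis, rank), for each comparison, with called genes in red or blue and clusters as numbered bands. Most points lie between -1 and 1, called rises and falls occur in the same bands, and ZNF836 lies off the axis at -5.45 and 5.67.

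The next comparison asked the same of cells given the short isoform. Here 53 of the 198 genes rose and 48 fell against parental (edgeR), or 51.0%, against 62.6% of all genes tested and 62.4% of ZNF genes elsewhere. The libraries of the 2 groups did not overlap for 58.1% of the genes, against 66.4% of all genes tested. The median log2 fold change was -0.01, with 0.00 over all protein-coding genes tested. Changes of at least 1 on the log2 scale were called for 7 genes, or 3.54%. The share was 14.4% of all genes tested and 5.96% of ZNF genes elsewhere. Of the 7, ZNF568, ZNF563, ZNF257, ZNF699 and ZNF763 rose, and ZNF69 and ZNF8-ERVK3-1 fell. The split depends on scaling. With library totals alone, which move the median of all genes tested from 0.03 to 0.16, 78 rose and 26 fell. With upper-quartile factors 70 rose and 32 fell. Without TACI short replicates 2 and 3, 52 rose and 33 fell, and 78 of the 101 calls kept their direction.

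ZNF563 had 5.43, 5.44 and 5.49 CPM in parental, 7.92, 8.03 and 7.44 in TACI long and 14.2, 14 and 14.4 in TACI short. Groups were separate and replicates close together, and the rise in TACI short was 1.25 ± 0.08 (SE; adjusted p = 1.76e-12, edgeR). ZNF699 rose from 1.57 to 2.34 CPM in parental to 4.17 to 4.76 in TACI short (log2 fold change 1.05, adjusted p = 1.69e-06, edgeR). ZNF568, whose mouse relative silences a placental promoter of Igf2, had only 0.087 to 0.236 CPM in parental and 0.383 to 0.559 in TACI short (log2 fold change 1.52, adjusted p = 0.00319, edgeR). Without TACI short replicates 2 and 3 its adjusted p was 0.0799 (edgeR, with the lone library assumed to vary like the other groups). With 20 counts in parental, 26 in TACI long and 63 in TACI short, ZNF568 reached the count sum only through TACI short, where it is high, so its rise lends no support to a count of changed genes. No other of the 198 genes depended on its highest group in this way. ZNF763 shares 47.27% of its 50-base words with another annotated gene, so its rise is uncertain. ZNF546, ZNF585A and ZNF571 rose by 0.90, 0.86 and 0.66; the latter 2 overlap ZNF420 and ZNF540.

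ZNF69 fell in TACI short from 1.33, 1.35 and 1.67 CPM in parental to 0.495, 0.918 and 0.499 (log2 fold change -1.33, adjusted p = 4.42e-05, edgeR). ZNF583 had 8.07, 8.95 and 8.64 CPM in parental, 9.88, 10.7 and 10 in TACI long and 4.55, 5.31 and 5.37 in TACI short, which lay below all other libraries. Its fall in TACI short was 0.88 ± 0.09 on the log2 scale (SE; adjusted p = 4.53e-09, edgeR). The gene next to it, ZNF582, fell as well, from 1.89 to 2.02 CPM to 1.04 to 1.6 (log2 fold change -0.64, adjusted p = 0.00279, edgeR). ZNF480 fell by 0.51, ZNF296 by 0.58 and ZNF324, which overlaps ZNF446, by 0.61.

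Both lines were compared with the same parental libraries, so their changes are given side by side and not as independent results. Some genes were called in opposite directions, and the 4 with the largest change in the line that moved less were ZNF257, ZNF460, ZNF296 and ZNF765. ZNF460 was lower in TACI long and higher in TACI short, with 3.74, 4.13 and 3.88 CPM in parental, 2.48, 2.54 and 3.06 in TACI long and 5.99, 6.75 and 6.87 in TACI short. ZNF296 was higher in TACI long and lower in TACI short, with 35.9 to 40.5, 47.8 to 49.3 and 27.8 to 29.2 CPM in the same order, and so was ZNF765, with 14.3 to 16, 20.7 to 21.6 and 12.5 to 14.2 CPM.

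Set against TACI long, TACI short had 49 of the 198 genes higher and 78 lower (edgeR), 64.1% against 68.8% of all genes tested. Higher genes made up 24.7% of them, against 35.2% of all genes tested, and the groups did not overlap for 69.2%, against 71.6%. The family had a median log2 fold change of -0.12 against 0.00 over all protein-coding genes tested. ZNF genes on other chromosomes were similar, with 28% higher, 40.4% lower and a median of -0.08. The split again followed the scaling: 73 against 55 with library totals alone, 68 against 63 with upper-quartile scaling. Changes of at least 1 on the log2 scale were called for 8 genes, or 4.04%. That compares with 20% of all genes tested and 9.17% of ZNF genes on other chromosomes. Of the 8 genes, ZNF836, ZNF257, ZNF8, ZNF460, ZNF568 and ZNF846 were higher in TACI short, and ZNF583 and ZNF69 were lower. The call of ZNF568 between the lines was lost without TACI short replicates 2 and 3 (adjusted p = 0.224, edgeR), and also without TACI long replicate 1 or 2 or TACI short replicate 3 (adjusted p = 0.0699 to 0.111). ZNF8 had 2.6, 2.72 and 3.06 CPM in TACI long and 7.04, 7.46 and 6.17 in TACI short, with 5.04 to 5.41 in parental between them (log2 fold change between the lines 1.17, adjusted p = 2.67e-09, edgeR). Reads of ZNF8 and the readthrough gene ZNF8-ERVK3-1 cannot be told apart with certainty, and the latter had 0.461 to 0.945 CPM in TACI long and 0.339 to 0.765 in TACI short.

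To ask whether neighbours moved together, the 251 genes were split into clusters wherever more than 500 kb separated one gene from the next. This gave 10 clusters of at least 5 genes, which held 187 of the 198 genes. Consecutive genes of a cluster or smaller group, among the 198, made 181 pairs, 20 of which overlap. In TACI long against parental both genes of 26 pairs were called in the same direction, or 14.4%, and those of 19 pairs in opposite directions. The same-direction share was 18.9% for 772 pairs of other neighbouring protein-coding genes on chromosome 19 and 18.9% for 10836 pairs on other chromosomes. These sets are not fully alike, since 140 of the 772 and 1862 of the 10836 pairs overlap. They also hold only pairs at most 500 kb apart. Members were paired across genes under the count sum, as ZNF257 was across the stretch from ZNF676 to ZNF728. The correlation of the log2 fold changes of pair members was r = 0.04 over the 181 pairs, which share libraries and control samples, against 0.11 in both other sets. On ranks, which give ZNF836 less weight, rho was 0.14, against 0.15 for the other chromosome 19 pairs and 0.11 elsewhere.

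In TACI short against parental 27 pairs, or 14.9%, moved in the same direction and 14 in opposite ones, with shares of 29.3% for other chromosome 19 pairs and 26.4% elsewhere. Here r was 0.07 and rho 0.09, against r of 0.21 and 0.13 and rho of 0.15 and 0.11 in the other sets. Between TACI short and TACI long 42 pairs, or 23.2%, moved in the same direction and 29 in opposite ones, with shares of 30.4% and 30% in the other sets. Here r was -0.01 and rho 0.04, against r of 0.14 and 0.11 and rho of 0.09 in both other sets. Since fewer of the 198 genes were called, the share was also taken over pairs with both genes called. It was then 57.8%, 65.9% and 59.2% in the 3 comparisons, against 61.3%, 56.5% and 55.0% for other chromosome 19 pairs and 57.4%, 55.1% and 54.1% elsewhere. These are descriptions without a test. By strand, 37 pairs were transcribed away from each other, 39 toward each other and 105 in the same direction. In TACI long against parental 5 of the first moved in the same and 5 in opposite directions, 4 and 2 of the second, and 17 and 12 of the third. Between the lines these counts were 6 and 9, 11 and 2, and 25 and 18. The pairs transcribed toward each other had r = 0.31 in TACI long, -0.01 in TACI short and 0.33 between the lines, with rho of 0.17, 0.16 and 0.31. Of these 39 pairs 6 overlap, and reads of overlapping genes cannot be told apart. In the same order r was -0.04, 0.19 and -0.07 for pairs transcribed away from each other. For pairs on the same strand it was 0.04, 0.07 and -0.04. Pairs of other genes were not split by strand.

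**Figure D4:**
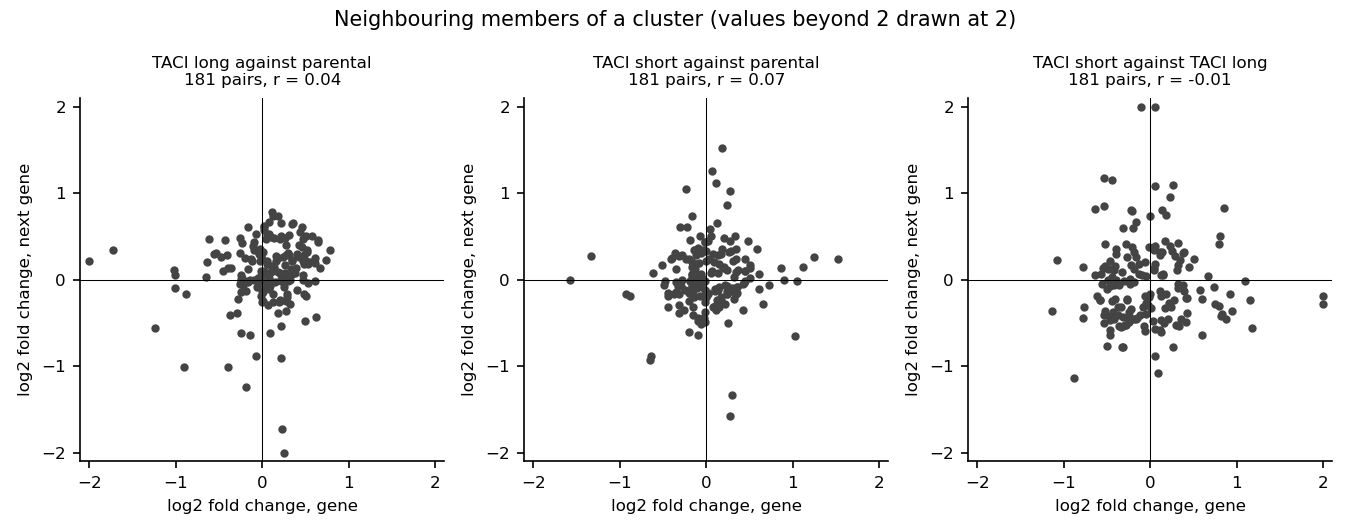
Log2 fold change of each gene (x axis) and of the next gene in its cluster (y axis), 1 point per pair, for the 3 comparisons; values beyond 2 are drawn at 2. The points form a cloud around 0 with r = 0.04, 0.07 and -0.01 over 181 pairs.

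No run of neighbours with the same call was longer than 5 genes, and runs among other genes were not counted for comparison. TACI long against parental had 2 runs of 4 or more, both of higher genes and both in cluster 4: ZNF91, ZNF675, ZNF681, ZNF726 and ZNF254, over 0.825 Mb, and ZNF493, ZNF429, ZNF100 and ZNF43, over 0.455 Mb. ZNF675 had 17.7, 19.8 and 20.6 CPM in parental and 26.1, 26.8 and 26 in TACI long, ZNF681 17.8 to 19.8 against 25.8 to 28.2, and ZNF254 17.6 to 19.9 against 25.4 to 26.4. These 3 and ZNF91 rose by 0.44 to 0.65, while ZNF726 rose by 0.20 and ZNF429 by 0.18, at adjusted p = 0.0331 and 0.0397 (edgeR), and leaving out any 1 of the 6 libraries compared ended both calls (adjusted p = 0.0591 to 0.154, edgeR). ZNF43 lost its call without parental replicate 1 (adjusted p = 0.0863). TACI short against parental had no such run. TACI short against TACI long had 2. ZNF649, ZNF613, ZNF350, ZNF615 and ZNF614 in cluster 8 were lower by 0.31 to 0.78 over 0.141 Mb, and ZNF865, ZNF784, ZNF580, ZNF581 and ZNF787 in cluster 9 were higher by 0.15 to 0.45 over 0.516 Mb. Both runs are broken by leaving out single libraries. ZNF615 lost its call without TACI long replicate 1, without TACI short replicate 3 and without TACI short replicates 2 and 3 (adjusted p = 0.129, 0.0848 and 0.0993, edgeR), and with library totals alone (0.2). ZNF580 lost its call without TACI long replicate 1 or 2, TACI short replicate 2, or TACI short replicates 2 and 3 (adjusted p = 0.124, 0.119, 0.0546 and 0.0566). ZNF787 lost it without TACI long replicate 2 or 3 or TACI short replicate 1 (adjusted p = 0.0876, 0.0758 and 0.0806).

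The members of these runs did not all move for the same contrast with parental. ZNF614 had 21.2, 23 and 21.6 CPM in parental, 27, 26.5 and 26.5 in TACI long and 17, 16.2 and 17.9 in TACI short, and was called in both lines in opposite directions. ZNF613 had 4.48 to 4.98, 6.12 to 6.45 and 4.64 to 5.05 CPM in that order and was called in TACI long alone. ZNF350, also known as ZBRK1, a repressor that binds BRCA1, had 1.06 to 1.2 CPM in parental, 1.32 to 1.45 in TACI long and 0.405, 1.19 and 1.1 in TACI short, so replicate 1 was the low one. Without it the log2 fold change of ZNF350 between the lines was -0.45, at adjusted p = 0.0504 (edgeR). In the cluster 9 run, ZNF581 had 45.3 to 48.2 CPM in parental, 44.7 to 46.9 in TACI long and 66.8 to 69.4 in TACI short, whereas ZNF865 was lower in TACI long (33.1 to 35.8 CPM) than in parental (43.4 to 45). ZNF580 and ZNF581 overlap and their reads are uncertain.

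Cluster 4, the pericentromeric group from ZNF101 to ZNF254 over 4.46 Mb, had most of its called genes higher in TACI long. Of its 29 genes 16 were higher and 3 lower (edgeR), with a median log2 fold change of 0.22. Among all genes tested 25.2% were higher and 25.9% lower. The 3 lower ones were ZNF257, ZNF93 and ZNF66, of which ZNF66 lost its call when parental replicate 2, TACI long replicate 1 or TACI long replicate 2 was left out (adjusted p = 0.0959 to 0.17, edgeR). Summed over the 29 genes with TMM scaling, the level was 448, 461 and 445 CPM in parental, 531, 542 and 532 in TACI long and 503, 471 and 478 in TACI short, and no 2 groups overlapped. In TACI short 12 of the 29 were higher and 3 lower against parental, beside 31.5% and 31.1% of all genes tested. With library totals alone these counts were 19 and 0, a scaling that also moved the median of all genes tested to 0.16. Cluster 7, from ZNF575 to ZNF180, had TMM-scaled sums of 115 to 119.5 CPM in parental, 140.4 to 141 in TACI long and 112 to 123 in TACI short. Only 4 of its 14 genes were called in TACI long, all higher, beside 51.1% of all genes tested called in either direction. In cluster 9 the sum was lower in TACI long, 319 to 330.5 CPM against 353 to 373, and in cluster 2 it was lower in both lines, 179.7 to 183 and 172 to 186 CPM against 196 to 200.2. These sums depend on scaling. By library totals cluster 4 had 431 to 451 CPM in parental, 513 to 531 in TACI long and 507 to 518 in TACI short, so the lines overlapped. Cluster 2 in TACI short then overlapped parental, with 183 to 192 CPM against 191 to 196. Sums were not tested.

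**Figure D5:**
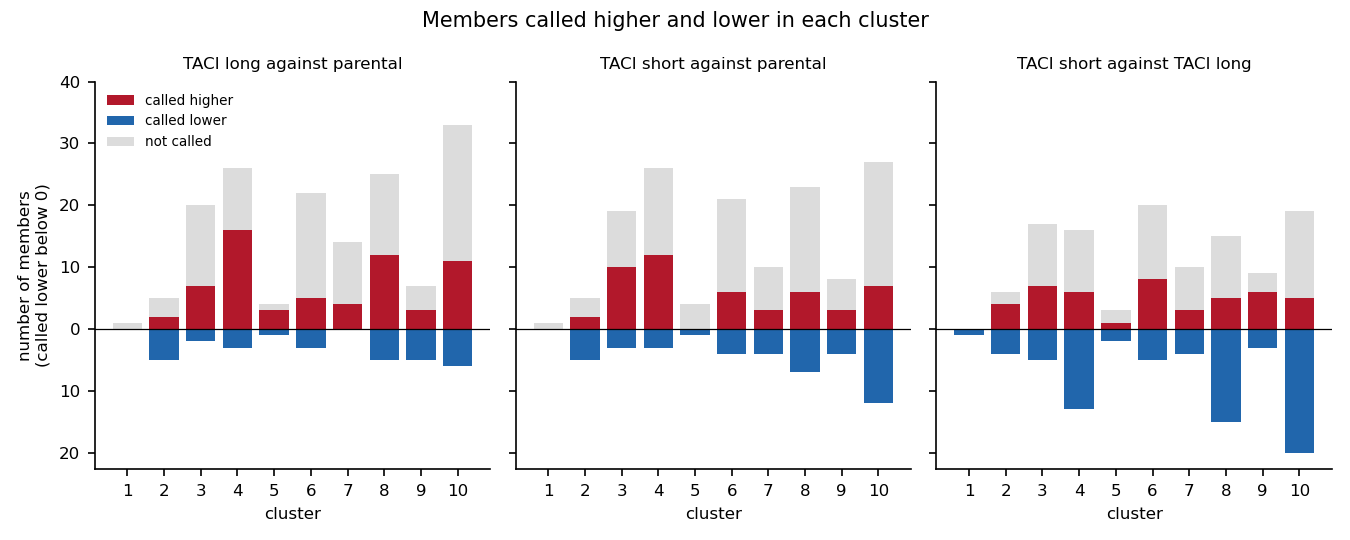
Number of genes (y axis) called higher (red, above 0), not called (grey) and called lower (blue, below 0) in each of the 10 clusters (x axis), for the 3 comparisons. Cluster 4 has 16 of 29 genes higher and 3 lower in TACI long, beside 25.2% and 25.9% of all genes tested. Every cluster with more than 5 genes other than cluster 7 has calls in both directions in that comparison.

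The partners of KRAB proteins were examined as a list of 23 genes for the corepressor, its enzymes and heterochromatin proteins, chosen with earlier results known. In TACI long 7 rose and 7 fell (edgeR), beside 25.2% and 25.9% of all genes tested. In TACI short 3 rose and 14 fell, beside 31.5% and 31.1%, and between the lines 4 were higher and 14 lower in TACI short, beside 35.2% and 33.6%. Among protein-coding genes alone 36.0% fell in TACI short. The medians were 0.00, -0.19 and -0.29, with 0.02, 0.00 and 0.00 over all protein-coding genes tested. The counts for this list used TMM factors, and splits for TACI short depended on scaling above. With library totals alone MPHOSPH8 lost its call in TACI short (log2 fold change -0.07, adjusted p = 0.177, edgeR). HDAC2 and CHD3, among the 14 falls in TACI short, had means of 90.1 and 179 CPM in parental and 90.7 and 176 there. EHMT1 and DAXX were lower in CPM too, with means of 129 and 109 against 89 and 80.1. TRIM28, the corepressor, had 962, 923 and 965 CPM in parental, 941, 931 and 955 in TACI long and 800, 766 and 755 in TACI short. It did not pass in TACI long (log2 fold change -0.01) and fell by 0.42 ± 0.05 in TACI short (SE; adjusted p = 2.4e-08, edgeR). SETDB1 moved otherwise: 34.7 to 36 CPM in parental, 26.2 to 30 in TACI long and 35.7 to 38.8 in TACI short, a fall of 0.30 in TACI long (adjusted p = 2.64e-05, edgeR). ATF7IP, the partner that stabilises SETDB1, rose by 0.59 in TACI long and by 0.26 in TACI short. EHMT1, a histone H3K9 methyltransferase, fell by 0.23 and 0.67, and DAXX, a chaperone of histone H3.3, fell by 0.58 in TACI short. MPHOSPH8, the chromodomain subunit of the HUSH silencing complex, fell by 0.31 in TACI long.

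The 53 genes under the count sum summed to 2.55 to 3.41 CPM in parental, 1.69 to 2.19 in TACI long, 2.52 in TACI short replicate 1, and 7.14 and 6.53 in TACI short replicates 2 and 3. These genes include ZNF835, which had no count in any library. Of the 53 genes 22, or 41.5%, were higher in both TACI short replicates 2 and 3 than in the other 7 libraries. The share was 36.1% for other protein-coding genes with a count sum of 1 to 99, which leaves out genes with no count. At 0.2 CPM or more this held for only 8 of the 22. Of the 198 members 15, or 7.58%, were higher there, against 18.4% of other protein-coding genes with a sum of at least 100. ZNF841, which lies between ZNF432 and ZNF616 in cluster 8, had 0.67 and 0.559 CPM there against 0.0217 to 0.118 in the others. ZNF234 had 0.546 and 0.399 CPM against 0.0225 to 0.11, and ZNF470 0.298 and 0.319 against 0 to 0.045. The same 2 libraries held the highest summed myeloid marker levels and the highest levels of COL1A1 and COL1A2. The part of that RNA in these genes was not tested. Among the 198 members the median log2 ratio of TACI short replicates 2 and 3 over replicate 1 was -0.02, and 2 genes, ZNF433 and ZNF350, exceeded 1.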

How the data were processed

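RNA of 9 libraries was sequenced, 3 each of parental BJAB, TACI long and TACI short, and the authors deposited raw counts per gene for each library. Per the submitters' processing notes FastQC, STAR 2.4.0h, HTSeq and build hg38 were used. The column layout is that of featureCounts output, per the file headers. How multimapping reads and strand were handled, and which annotation release was counted, are not given in the sources used here. Reads shared by near-identical genes may therefore have been dropped or split.

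Genes were matched to GENCODE release 29 for class and coding sequence. Counts were tested in edgeR 4.0.16 (R 4.3.3; TMM factors, filterByExpr with a minimum count of 10 and total of 15, quasi-likelihood test) on 16672 genes, with all 9 libraries in one fit and Benjamini-Hochberg adjustment over all genes tested. CPM are counts over library totals, whereas fold changes use TMM factors. The fit was tested on simulated data. Alternatives used DESeq2 1.42.0, limma 3.58.1 (voom), other scalings and filters, left-out libraries and a replicate block.

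Named genes were, per comparison, the called genes with the 6 highest and 6 lowest log2 fold changes, given non-overlapping groups and a mean of at least 1 CPM. Added to these were genes nearly silent in 1 group, runs of 4 or more, the 4 highest by CPM, 4 genes of opposite direction, the 2 genes on either side of the count sum and up to 4 corepressor genes. Genes named otherwise are said to be, or were called with a log2 fold change of at least 1. Members and lists were chosen with earlier results of these data known. The replicate numbers were not used to pair the libraries in the main fit.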

Additional observations from a re-analysis of the deposited data

Results flagged for a closer look

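Of the genes called against parental in both lines, in opposite directions, the 4 with the largest change in the line that moved less were named. They differed between the lines by log2 fold changes (TACI short over TACI long, edgeR) of 2.84 for ZNF257, 1.15 for ZNF460, -0.9 for ZNF296 and -0.78 for ZNF765. They were chosen for opposite directions against shared parental libraries, so a difference between the lines is largely fixed by that choice. The ZNF genes under the count sum, which entered no comparison as a group, summed to 7.14 CPM in TACI short replicate 2 and 6.53 CPM in TACI short replicate 3, above the 2.55 to 3.41 CPM of the parental libraries.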

How the results depend on the processing

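Of 99 named fold changes, 87 had a value under all 19 alternatives, and 77 of these kept their direction and side of the threshold throughout. The other 12 had no value under at least 1, such as the filter at 1 CPM. Of the 99, 11 lost the call under at least 1 alternative, 3 gained it, and 0 reversed. ZNF836 remained the single member near silence in 1 group. With library totals only, the number of members lower in TACI short against parental was 26, in place of 48. Leaving out 1 library at a time gave 48 to 76 higher and 23 to 32 lower in TACI long, 42 to 52 and 36 to 53 in TACI short, and 37 to 46 and 71 to 80 between the lines. With the replicate block the counts were 70 and 32, 52 and 47, and 49 and 75, and neighbouring pairs moving together numbered 28, 27 and 41. Same-numbered libraries correlated between -0.272 and 0.434 and differently numbered ones between -0.389 and 0.346. These ranges overlap and do not settle whether the numbers tie libraries together. Without TACI short replicates 2 and 3 those pairs numbered 37, 19 and 33; this and the block for pairs were chosen after seeing the data. DESeq2 gave 54 and 23, 43 and 40, and 40 and 71. With 3 libraries a group, genes near 1 CPM have wide errors, and differences of 1 to 3 counts were not detectable at this depth.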
